A study of Homo sapiens with 3 samples.

Results

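A375 cells are an established human melanoma line that grows attached to the dish, and the comparison described here sets cells that had reattached for 1 day against cells in suspension. The study hybridized total RNA of adherent, suspended and reattached cells to 3 Illumina arrays, 1 for each state. A probe belonged to the comparison when its detection p-value, the scanner's measure of whether a signal exceeds the negative controls, was under 0.01 on the suspended array, the reattached array or both. By this rule 17905 of 47323 probes (37.8%) were members. Of these, 16387 were detected on both arrays, 439 on the reattached array alone and 1079 on the suspended array alone. At the edge of the rule, 55 probes just inside had a detection p-value of 0.00909 and a median of the higher signal of 73.7, while 296 probes just outside had 0.0104 and 72.8.

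The adherent cells grew on culture dishes in medium with 10% serum. Suspended cells received the same medium but were plated on sterile plastic dishes. For the reattached state, suspended cells were moved back to a culture dish with fresh medium and harvested 1 day later, so that the change of dish, the fresh medium and the time are shared by the whole reattached sample and cannot be told apart. The length of the suspension and the number of cultures behind each RNA are not stated in the labels. With 1 array per state there was no spread between replicates, so no difference was tested and sizes alone are given.

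Anchored cells hold the matrix through integrins, paired receptors that connect to actin filaments at focal adhesions. Tension in the actin network keeps the coactivators YAP and TAZ in the nucleus, where they work with TEAD factors, while actin polymerization frees the coactivator MRTF to work with the factor SRF. Melanoma cells are known to grow without anchorage and to shift between pigmented and invasive states.

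The label was set against melanocyte markers. SOX10, MITF, GPNMB and MC1R were detected on all 3 arrays, but PMEL, MLANA, TYR, TYRP1 and S100B were detected on none. PAX3 was detected on the adherent array alone. Marker lists of other cell types were checked in the same way. Of 14 markers of keratinocytes and epithelia, 3 were detected in adherent, 1 in suspended and 3 in reattached cells, with summed signals of 2834, 2884 and 2523 intensity units, and KRT5, TP63 and CDH1, which define these cells, were undetected or had no named probe here. Most of each sum came from KRT10 (2118, 2231 and 1861), whereas KRT14 and KRT8 were detected in adherent and reattached but not in suspended cells. On the normalized scale defined below, the 3 compared markers had a median difference of 0.31. It lay between 0.03 and 0.33 under the 9 alternatives that gave a median. KRT14 stood at 0.73 or more, KRT8 at 0.31 or more and KRT10 at -0.07. The part of such a difference in the results below was not tested. For fibroblasts 5, 5 and 4 of 12 markers were detected in the same order (sums 6506, 6282 and 5535), with COL1A1, COL1A2 and COL3A1 undetected. Most of these sums came from S100A4 (5612, 5389 and 4685). For leukocytes 4, 5 and 4 of 14 were detected (sums 1688, 1951 and 1743), with PTPRC undetected. CD68 gave the largest part of these sums (942, 1120 and 939). For endothelium 2, 1 and 1 of 10 were detected (sums 739, 825 and 746), with VWF and CDH5 undetected. In bulk RNA such as this, fewer cells of a kind and less RNA per cell cannot be told apart.

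The arrays were of similar quality, with 37.5%, 36.9% and 35.6% of probes detected in adherent, suspended and reattached cells and median detected signals 4.58, 4.91 and 4.84 times those of undetected probes. Values below are background-corrected, quantile-normalized log2 levels, and a difference is always reattached minus suspended, so that 1 on this scale is 2-fold. The correction adds an offset of 16, which shrinks the differences of dim genes. The member probes included 14243 with a gene name, which represented 10716 genes. Each gene was read from its brightest member probe. Of these genes, 10083 were detected on both arrays, 171 on the reattached array alone and 462 on the suspended array alone.

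The 2 states were close to each other. The log2 levels of genes detected on both arrays had a Pearson correlation of 0.993 across genes, which share both arrays and are not replicates. Their differences had an SD of 0.22 and the middle of the distribution ran from -0.12 to 0.13. In all, 87.8% of genes lay within 1.25-fold and 98.1% within 1.5-fold. At 2-fold or more, 22 genes (0.205% of all compared) were higher in reattached cells and 12 (0.112%) were lower. At 1.5-fold or more the counts were 88 (0.821%) and 117 (1.09%). Counted over member probes, 30 (0.168%) were 2-fold higher and 16 (0.0894%) 2-fold lower, of which 4 and 2 were among the 3662 probes without a gene name. The split between directions depended on scaling. When the arrays were scaled to a common median instead of a common distribution, the median of all genes moved from 0.01 to -0.12, and 12 genes were higher against 30 lower at 2-fold and 56 against 254 at 1.5-fold. Directions of small differences are therefore read against the median of all genes.

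**Figure D1:**
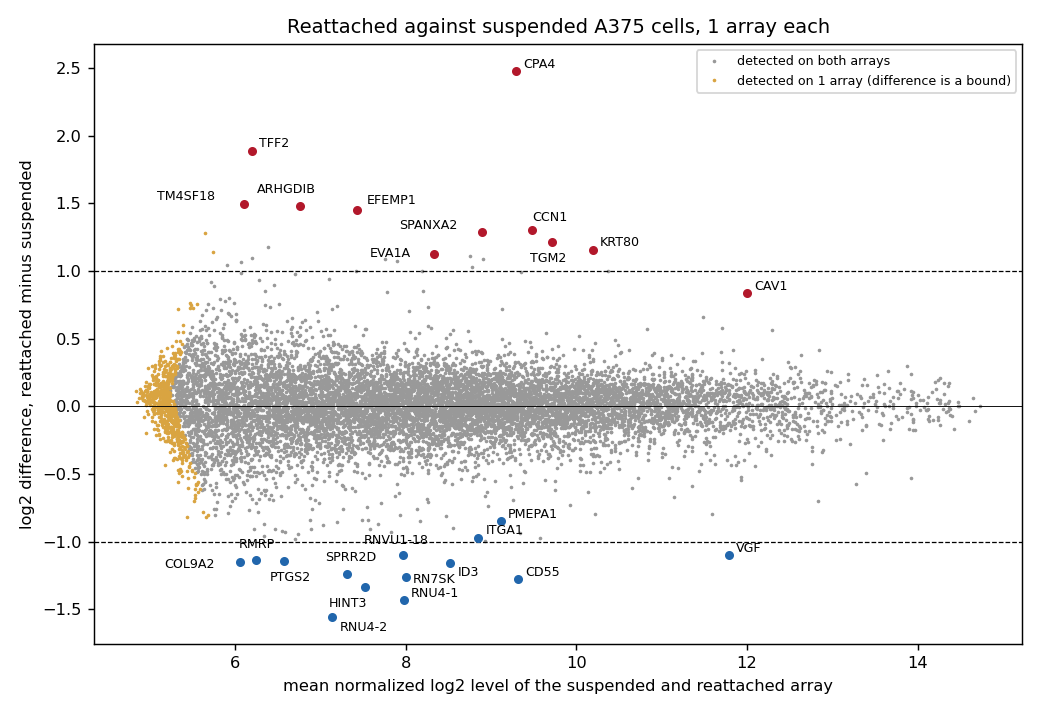
Each point is 1 of 10716 genes, placed by its mean normalized log2 level on the suspended and reattached arrays (horizontal axis) and by the log2 difference, reattached minus suspended (vertical axis); dashed lines mark 2-fold, orange points are genes detected on 1 array, and named red and blue points are examples of higher and lower genes. Of all genes, 98.1% lie within 1.5-fold, and CPA4 (2.48) and TFF2 (1.89) stand highest while RNU4-2 (-1.55) stands lowest.

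The scatter of differences was wider among dim genes. For genes with a mean level from 6 to 7 the SD was 0.28 and 3.97% reached 1.5-fold, for those from 8 to 9 it was 0.21 and 1.26%, and for the 152 genes above 13 it was 0.13 and 0%. The plot of differences by level shows this funnel. VGF, with a difference of -1.10, lay in the range of levels from 11 to 12, where the SD was 0.17.

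Probes of the same gene gave a check within the arrays that does not need replicates, although both probes read the same 2 RNAs. Of 2859 genes with a further member probe, the next brightest probe had the same sign in 1710 (59.8%, Wilson 95% interval 58.0 to 61.6, which covers counting error only). Where the brightest probe reached 1.5-fold, 37 of 46 genes (80.4%, interval 66.8 to 89.3) had the same sign on the next probe, and in 19 of them that probe also reached 1.5-fold. Where the brightest probe stayed under 1.25-fold, the share was 58.1% of 2551 genes. Among the 46 genes, the sign was shared in 15 of 16 whose next probe had a level of 7 or more and in 22 of 30 whose next probe was dimmer. At 2-fold, 8 of 9 genes shared the sign and 2 reached 2-fold on both probes.

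**Figure D2:**
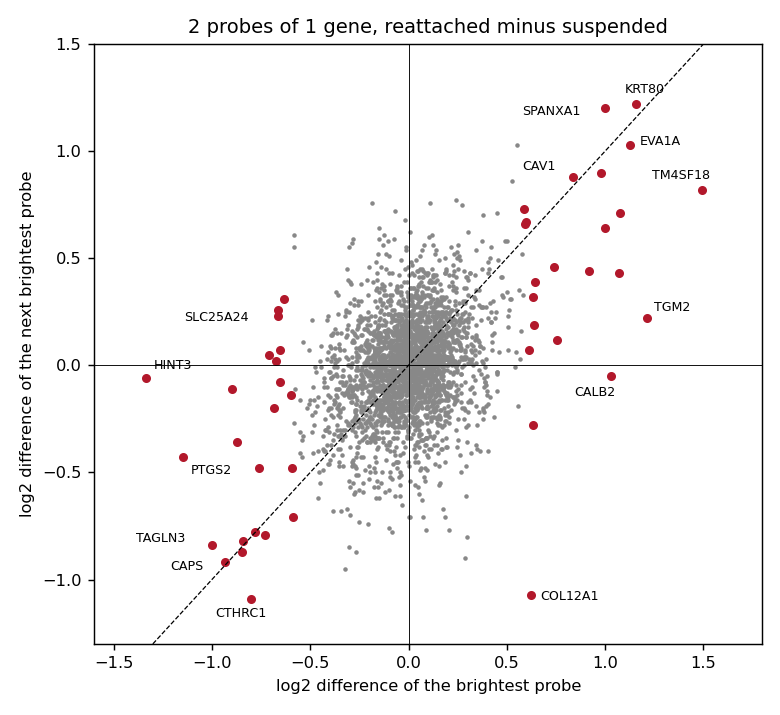
Each point is 1 of 2859 genes, placed by the log2 difference, reattached minus suspended, of its brightest member probe (horizontal axis) and of its next brightest (vertical axis); red points are the 46 genes whose brightest probe reached 1.5-fold and the dashed line marks equal differences. KRT80 (1.16 and 1.22), CAV1 (0.83 and 0.88) and CAPS (-0.93 and -0.92) lie near the line, whereas HINT3 (-1.33 and -0.06) and COL12A1 (0.62 and -1.07) lie far from it.

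Of the 2836 genes with 2 or more member probes and a ranked symbol, 11 had every probe at 1.5-fold or more higher and 8 had every probe as much lower. The higher genes included the epithelial keratin gene KRT80, EVA1A, which encodes a membrane protein of lysosomes and the ER, the interleukin-33 receptor gene IL1RL1, the caveolin gene CAV1, the receptor phosphatase gene PTPRF and the Hippo regulator gene NF2. KRT80 differed by 1.16 and 1.22 on its 2 probes, EVA1A by 1.13, 1.03 and 0.97 on 3 probes, IL1RL1 by 0.98 and 0.90, and PTPRF by 1.00 and 0.64. The lower genes included PMEPA1 (-0.85 and -0.87), a feedback inhibitor of TGF-beta signalling, TAGLN3 (-0.998 and -0.84), a transgelin, ENPP2 (-0.78 and -0.78), which makes lysophosphatidic acid, and CTHRC1 (-0.80 and -1.09), a secreted matrix protein. CAPS, a calcium-binding protein gene, differed by -0.93 and -0.92, and GEM, a small GTPase gene, by -0.84 and -0.82. These genes were chosen because all their probes pointed the same way, so that agreement is set by the rule and is no further result.

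In 9 of the 46 genes the next probe pointed the other way. The calretinin gene CALB2 differed by 1.03 on its brightest probe and by -0.05 on the other. COL12A1, a fibril-associated collagen gene, differed by 0.62 and -1.07, and SLC25A24, a mitochondrial carrier gene, by -0.66 and 0.23. The values of these genes are values of a probe, and whether the probes read different transcripts was not tested.

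CPA4, a secreted carboxypeptidase gene, had a level of 11.45 in adherent, 8.05 in suspended and 10.53 in reattached cells, and was 5.56-fold higher after reattachment. TFF2, which encodes a secreted trefoil peptide, had 7.94, 5.26 and 7.14 in the same order and was 3.70-fold higher. For TM4SF18, a membrane protein gene, the levels were 7.93, 5.36 and 6.85 and the difference was 2.82-fold, with 0.82 on its other probe. The suspended levels of TFF2 and TM4SF18 lay near the lowest detected level of that array, 5.18. Under the alternatives the difference ran from 1.27 to 1.90 for TFF2 and from 0.98 to 1.52 for TM4SF18. In CPA4, TFF2 and TM4SF18 the reattached level lay between the other states, nearer to the adherent one. Whether these positions differ from chance cannot be told with 1 array per state. Genes picked for a large reattached minus suspended difference are likely to have an extreme suspended level. Here and below, being lowest or highest in suspension therefore partly follows from the choice, and all such positions share the suspended array. The share of all genes with the same order is not given.

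ARHGDIB stood at 8.31, 6.03 and 7.51 and was 2.79-fold higher. EFEMP1, a fibulin of the extracellular matrix, stood at 8.66, 6.71 and 8.16 and was 2.74-fold higher. FGFBP1, which releases fibroblast growth factors from the matrix, stood at 7.90, 5.65 and 6.75 and was 2.14-fold higher. Each of these genes was lowest in suspension and highest in adherent cells. L1CAM, an adhesion molecule of the immunoglobulin family, went the same way with 7.09, 5.38 and 6.43, and SUSD2, a membrane protein gene, with 8.78, 6.92 and 7.92. The suspended level of L1CAM lay near the detection limit. C19orf33, left out of the ranking by its symbol and named after its value was seen, was detected on both arrays, stood at 7.83, 5.81 and 6.98 and was 2.26-fold higher.

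CCL2 and TGM2 came within 0.2 of their adherent levels. The monocyte chemokine gene CCL2 had levels of 9.46, 8.37 and 9.46, a 2.13-fold difference between reattached and suspended cells. TGM2, a transglutaminase that crosslinks matrix proteins, had 10.50, 9.11 and 10.32 on its brightest probe, a difference of 1.21, but its other probes differed by 0.22 and 0.39. Averaged over its probes the difference of TGM2 was 0.61.

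**Figure D3:**
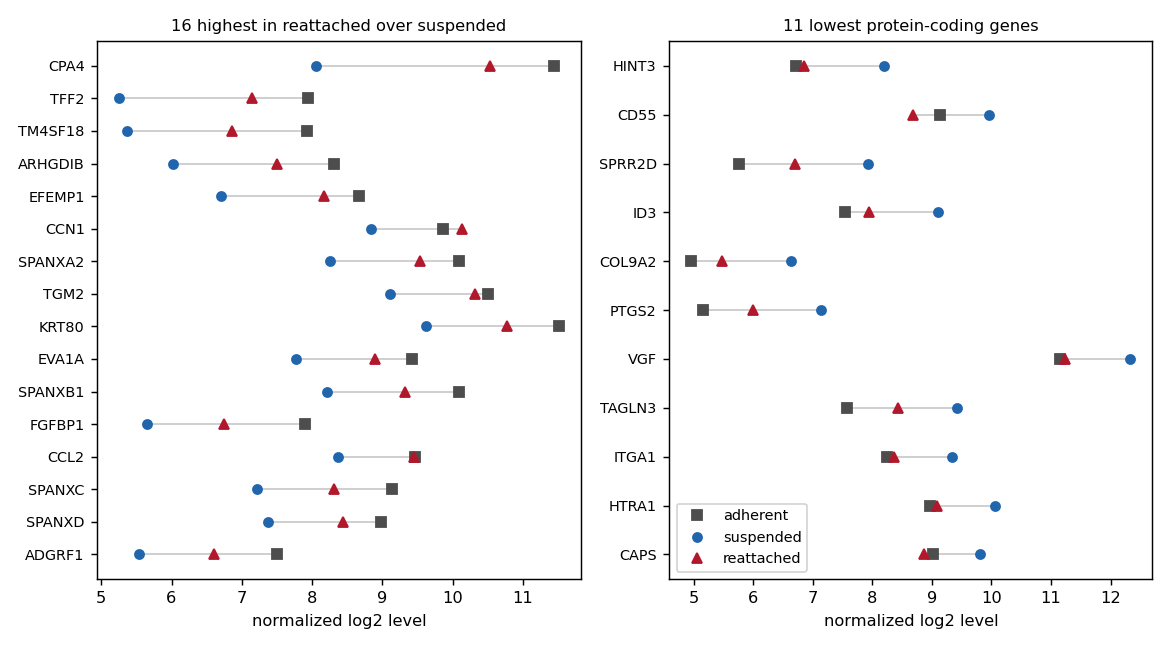
Normalized log2 levels (horizontal axis) of the 16 genes with the highest reattached minus suspended differences (left) and the 11 lowest protein-coding genes (right), with a square for adherent, a circle for suspended and a triangle for reattached cells, 1 array each. All arrays were normalized together, and every difference shown shares the suspended array; CCN1 at 10.14 is the one higher gene shown whose reattached level exceeds its adherent level of 9.86 by more than 0.2.

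The SPANX genes are near-identical cancer-testis antigen genes of the X chromosome. Of 63 listed cancer-testis genes 36 were compared, and 5 SPANX genes were 1.00 to 1.29 higher, namely SPANXA1, SPANXA2, SPANXB1, SPANXC and SPANXD. SPANXA2 stood at 10.09, 8.25 and 9.54 in adherent, suspended and reattached cells. Their probes may read each other's transcripts, so the values cannot be assigned with certainty to 1 gene each and are not 5 separate observations. The median of the 36 genes was 0.08, which turned to -0.05 under median scaling, where all genes stood at -0.12.

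Several genes were detected after reattachment but not in suspension. ALPK2, an alpha-kinase gene, had a level of 7.74 in adherent and 6.46 in reattached cells and was at least 2.43-fold higher than on the suspended array. NEXN, whose actin-binding product nexilin sits at focal adhesions, had 6.23 and 6.31 in those states and was at least 2.20-fold higher. The other ranked genes of this kind were ARHGAP30, MTMR1, S100P, FRAS1, KRT14 and HS3ST1, at least 1.65 to 1.70-fold higher.

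Targets of YAP and TAZ stood higher as a list. Of 30 listed genes 27 were compared, 3 of them detected on 1 array. Their median difference was 0.28 against 0.01 for all genes, 20 of 27 lay above 0 against 52.1% of all genes, and 11 were at least 1.25-fold higher and 2 lower, against 5.89% and 6.35% of all genes. These shares of all genes are the background of the counts for every list that follows. CCN1, a matricellular ligand of integrins, had levels of 9.86, 8.83 and 10.14 in adherent, suspended and reattached cells, 2.47-fold higher after reattachment. AJUBA, a LIM protein that binds Hippo kinases, was at 7.30, 6.66 and 7.29 and differed by 0.63. MYOF, the membrane repair gene myoferlin, was at 11.19, 10.54 and 11.12 and differed by 0.57, 0.52 and 0.70 on 3 probes. These 3 genes were lowest in suspension.

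THBS1, the matrix glycoprotein thrombospondin-1, was at 11.97, 11.42 and 11.999 and differed by 0.58. CRIM1, which binds bone morphogenetic proteins, differed by 0.59. CCN2, the connective tissue growth factor gene and a standard readout of YAP, was at 10.37, 9.96 and 10.33 and differed by 0.37 and 0.21 on 2 probes. Other members ran lower, namely NT5E (-0.43), AMOTL2 (-0.43), GGH (-0.29) and IGFBP3 (-0.25). AXL, a receptor kinase often used as a target, differed by 0.12. The list median stayed between 0.16 and 0.33 under the 10 alternatives.

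The promoter of CCN2 is shown because its TEAD sites are the textbook example of the YAP readout. The sequence is from RefSeq, assembly GRCh38.p14, chr6:131951323-131951622 on the minus strand, from 250 bases before to 50 bases after the gene's start, 5′ to 3′, with matches to GGAATG on either strand in capitals.
CCN2: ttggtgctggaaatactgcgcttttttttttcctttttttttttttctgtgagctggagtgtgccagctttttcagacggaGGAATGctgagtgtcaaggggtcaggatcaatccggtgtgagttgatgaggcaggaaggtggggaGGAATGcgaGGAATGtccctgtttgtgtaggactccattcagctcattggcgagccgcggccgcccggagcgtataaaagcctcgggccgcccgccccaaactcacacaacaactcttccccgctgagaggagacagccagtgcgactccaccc
The motif GGAATG was found 3 times in this window. Among list members with a promoter sequence, 7 of 20 held it (CCN2, ANKRD1, FOXF2, LATS2, NUAK2, PTPN14 and THBS1). So did 14.05% of all 27305 promoters of the same length and 10.65% of those of compared genes. Members with the motif had a median difference of 0.37 and those without it 0.12. A match is a description of the letters and does not show binding.

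The Hippo kinases and TEAD factors themselves showed smaller differences. Of 22 listed genes 18 were compared, with a median of 0.08 that turned to -0.05 under median scaling, and 4 were at least 1.25-fold higher and 1 lower. SAV1, the scaffold of the Hippo kinases, was at 7.53 in adherent, 6.77 in suspended and 7.49 in reattached cells and differed by 0.72. NF2, encoding the upstream regulator merlin, was at 6.38, 6.06 and 6.66 and differed by 0.60 and 0.67 on its probes. TEAD3 differed by -0.49, with levels of 5.72, 5.80 and 5.31. So SAV1 and NF2 were lowest in suspension and TEAD3 was lowest after reattachment.

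Actin cytoskeleton genes and SRF targets had a median of 0.17. Of 34 listed genes 26 were compared, and 23 lay above 0 against 52.1% of all genes. At least 1.25-fold higher were 6 (23.1%) against 5.89% of all genes, and 0 were as much lower against 6.35%. PDLIM1, which links alpha-actinin to other proteins, was at 9.83, 8.77 and 9.49 and differed by 0.72. PDLIM5, of the same family, was at 6.30, 5.60 and 6.11 and differed by 0.51, with 0.18 and 0.48 on its other probes. Both were lowest in suspension. CNN2, the calponin-2 gene, was at 9.01, 8.22 and 8.72 (0.50), and the tropomyosin gene TPM1 at 10.04, 9.88 and 10.29 (0.41, and 0.50 on its other probe). The abundant actin genes moved little, with ACTB at 0.17 and ACTG1 at -0.17. The list's median stayed between 0.03 and 0.18 under the alternatives.

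The CNN2 promoter is shown because it holds a CArG box, the element that SRF binds. It lies on the plus strand at chr19:1026358-1026657 of GRCh38.p14 (RefSeq), in the same window around the start, and the capitals mark the CArG box, which was searched on both strands.
CNN2: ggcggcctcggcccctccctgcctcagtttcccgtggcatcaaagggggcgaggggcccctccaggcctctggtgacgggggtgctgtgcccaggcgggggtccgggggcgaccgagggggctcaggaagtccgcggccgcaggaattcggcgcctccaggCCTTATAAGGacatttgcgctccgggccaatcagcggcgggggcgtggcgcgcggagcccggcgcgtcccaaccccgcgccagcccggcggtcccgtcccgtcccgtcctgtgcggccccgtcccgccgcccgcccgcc
A CArG box was found in 5 of 25 list members with a promoter sequence (ACTG1, CNN2, FHL2, SRF and TPM4). It was found in 1.29% of all promoters and in 1.09% of those of compared genes. Members with and without it had medians of 0.17 and 0.15.

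Caveolae, the membrane pits that flatten under tension, were represented by 6 of 9 listed genes, with a median of 0.33 that was 0.20 under median scaling and 0.17 with the mean over probes. CAV1, the main coat protein gene of caveolae, was at 12.82 in adherent, 11.58 in suspended and 12.42 in reattached cells and differed by 0.83 and 0.88 on its probes. CAVIN1, which shapes the coat, was at 12.54, 12.01 and 12.57 and differed by 0.56. CAV2 was at 8.65, 7.79 and 8.21 and differed by 0.42, with 0.55 and -0.13 on its other probes. All 3 were lowest in suspension on the brightest probe. PACSIN2 (0.24), CAVIN3 (-0.00) and EHD2 (-0.02) complete the list.

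Focal adhesion components split. Of 26 listed genes 21 were compared, with a median of 0.12 that was -0.03 under median scaling, still 0.10 above all genes there, and 4 members were at least 1.25-fold higher and 0 lower. TES, a LIM protein that binds zyxin, was at 6.17, 5.70 and 6.33 and differed by 0.63 and 0.32. EVL, an actin filament elongation factor, differed by 0.42, and the parvin genes PARVB and PARVA by 0.34 and 0.31, with 0.35 and 0.24 on their other probes. The core adaptor genes stayed close to 0, with TLN1 at 0.12, VCL at 0.03, PTK2 at 0.01 and PXN at -0.13.

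Integrin alpha chains ran the other way. Of 17 listed genes 11 were compared, 10 lay below 0 against 47.8% of all genes, the median was -0.22 and 4 were at least 1.25-fold lower. ITGA1, the alpha chain of a collagen receptor, was at 8.25, 9.34 and 8.36 in adherent, suspended and reattached cells and was 1.96-fold lower after reattachment. ITGA9 was at 6.18, 6.43 and 6.08 and differed by -0.35, and ITGA4 was at 7.55, 7.89 and 7.56 and differed by -0.32. The fibronectin receptor chain ITGA5 differed by -0.26, whereas ITGA3, ITGAV and ITGA2 lay within 0.04 of 0. The list stayed below 0 under all 10 alternatives, between -0.37 and -0.18.

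Integrin beta chains had a median of -0.01 over 7 genes, with a range of -0.17 to 0.08 under the alternatives. ITGB8, which with alpha-v binds latent TGF-beta, was at 7.26, 8.24 and 7.60 and differed by -0.64. ITGB1, the common partner of many alpha chains, was at 12.41, 12.72 and 12.63 and differed by -0.09. ITGB4, of the laminin receptor of hemidesmosomes, was detected after reattachment and not in suspension and was at least 1.28-fold higher. The highest array thus differed from chain to chain.

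**Figure D4:**
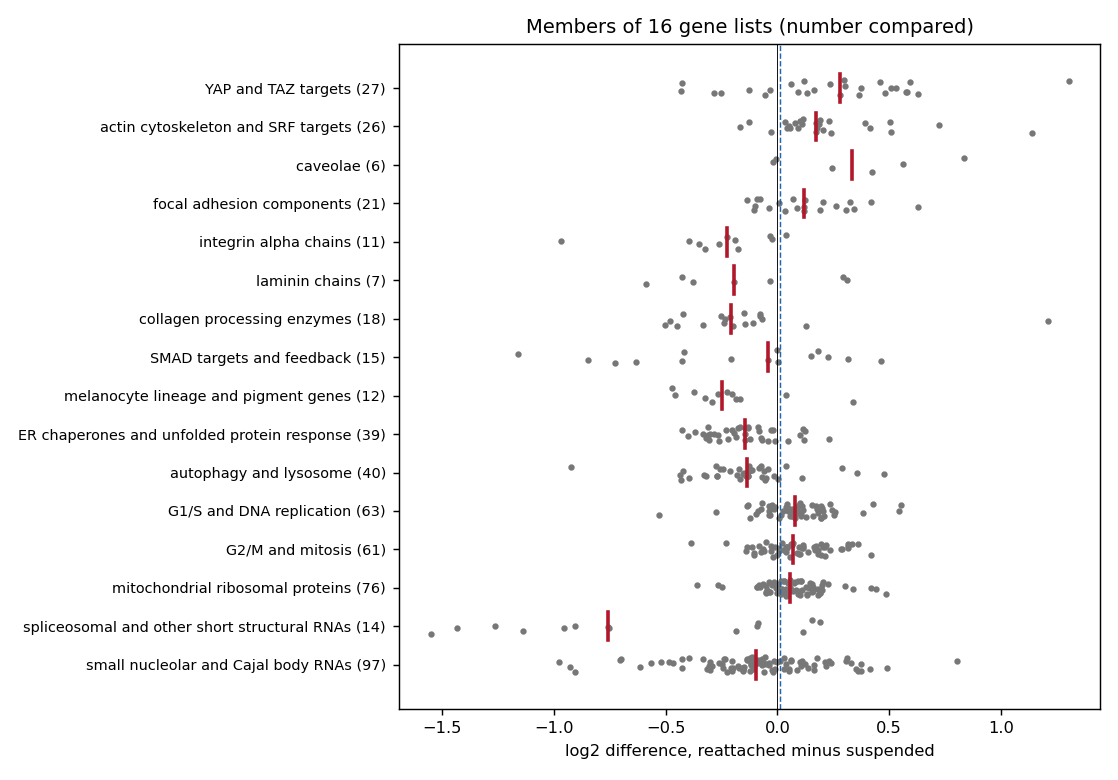
Each point is 1 compared gene of 16 lists, placed by its log2 difference, reattached minus suspended (horizontal axis); red bars are list medians, the dashed blue line is the median of all 10716 genes (0.01), and the number of genes compared is in parentheses. The medians run from 0.33 for caveolae (0.17 with the mean over probes) and 0.28 for YAP and TAZ targets to -0.25 for pigment genes and -0.76 for short structural RNAs, and single members spread widely around them.

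Matrix genes differed in both directions. Of 43 listed collagen chain genes 19 were compared, 5 were at least 1.25-fold higher and 4 as much lower, and the median was -0.02. The higher chains include COL12A1, counted by its brightest probe (0.62), whose other probe differed by -1.07. COL5A1, of a fibril-initiating collagen, was at 6.89, 5.82 and 6.75 and was 1.91-fold higher after reattachment. COL9A2, of a cartilage collagen, was not detected in adherent cells and stood at 6.63 in suspended and 5.48 in reattached cells, 2.22-fold lower. COL4A1, of basement membrane collagen, was at 10.40, 11.35 and 10.90 and differed by -0.44. COL5A1 was thus lowest in suspension, and COL9A2 and COL4A1 were highest there.

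Among 7 compared laminin chain genes of 12 listed, the median was -0.19 and 3 were at least 1.25-fold lower. LAMA4 was at 10.24, 11.66 and 11.07 and differed by -0.59 and -0.71 on its probes. LAMB1 differed by -0.43 and -0.10 and LAMB2 by -0.38, while LAMB3 (0.31) and LAMA5 (0.29) were higher. LAMB3 belongs to the epithelial laminin trimer and LAMA4 to that of blood vessels and nerves.

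Collagen processing enzymes had a median of -0.21, and 16 of the 18 compared genes of 23 listed lay below 0. Genes of the prolyl hydroxylases, which modify collagen before it folds, led the list. P3H2 was at 7.49, 8.23 and 7.73 and differed by -0.50. P4HA2 was at 9.004, 9.64 and 9.16 and differed by -0.48 and -0.16 on 2 probes. P4HA1 was at 10.09, 10.41 and 9.98 and differed by -0.42. All 3 were highest in suspension. TGM2, described above, was the exception at 1.21, and PLOD2 stood at 0.13. The list median stayed between -0.34 and -0.15 under the alternatives.

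Matrix glycoproteins and proteoglycans had a median of -0.06 over 27 of 43 listed genes, with 5 at least 1.25-fold higher and 5 lower. At 2-fold, 2 were higher and 0 lower, against 0.205% and 0.112% of all genes. The highest was EFEMP1, described above, at 1.45. SDC2, a heparan sulphate proteoglycan of the cell surface, was at 6.39, 7.30 and 6.46 and differed by -0.84. SPARC, a collagen-binding matrix protein, was at 10.83, 11.48 and 10.81 and differed by -0.67. THBS2 was at 5.34, 6.80 and 6.10 and differed by -0.70, opposite to THBS1. SDC2 and SPARC came within 0.1 of their adherent levels, whereas THBS2 stayed well above its own.

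Of 53 listed metalloproteases and their inhibitors 14 were compared, with a median of -0.08. TIMP1, an inhibitor of metalloproteases, was at 12.12, 13.18 and 12.49 and differed by -0.70. ADAMTS1, a protease that cleaves proteoglycans, was at 5.90, 6.87 and 6.21 and differed by -0.67. HTRA1, a secreted serine protease outside this list, was at 8.97, 10.06 and 9.09 and was 1.96-fold lower. All 3 were highest in suspension. TFPI2, an inhibitor of serine proteases in the matrix, differed by -0.63, with levels of 8.07, 9.27 and 8.64. Plasminogen activation and coagulation genes had a median of -0.03 over 9 of 14 listed genes, with 1 at least 1.25-fold lower and 0 higher.

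Direct targets of SMAD signalling divided by gene. Of 20 listed genes 15 were compared, the median was -0.04, and 6 were at least 1.25-fold lower and 1 higher. The ID genes encode inhibitors of basic helix-loop-helix factors and are standard targets of bone morphogenetic proteins. ID3 was at 7.53 in adherent, 9.11 in suspended and 7.95 in reattached cells, 2.23-fold lower after reattachment. ID1 was at 9.45, 10.29 and 9.56 and differed by -0.73 and -0.79 on its probes. ID2 was detected in suspension and not after reattachment, at least 1.55-fold lower. All 3 ID genes were highest in suspension.

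PMEPA1 was at 8.34, 9.54 and 8.69, and BAMBI, a decoy receptor, at 11.08, 11.84 and 11.42, a difference of -0.43. SMAD6, an inhibitory SMAD and itself a target, went the other way with 8.48, 7.75 and 8.22, a difference of 0.47. SMAD7 stood at 0.00 and SKI at -0.00. The SMAD-type motif GGCGCC, searched on both strands, was found in 4 of 12 members with a promoter sequence (33.3%), in 18.97% of all promoters and in 30.7% of those of compared genes, and members with and without it had medians of -0.14 and -0.12. Among 17 compared TGF-beta and BMP ligands and receptors of 33 listed, the median was -0.10 and 0 were at least 1.25-fold higher. TGFB3, at 5.47, 6.31 and 5.71 (-0.60), was the 1 gene (5.88%) as much lower, close to the 6.35% of all genes.

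Genes of the melanocyte lineage and of pigment production were lower as a list, with a median of -0.25 over 12 of 25 listed genes, 10 of them below 0. EDNRB, the endothelin receptor of melanocytes, was at 8.38, 8.96 and 8.49 and differed by -0.47. GPNMB, a melanosomal glycoprotein, was at 10.09, 10.73 and 10.27 and differed by -0.46 and -0.40 on its probes. MITF, the lineage's central transcription factor, was at 7.22, 7.45 and 7.08 and differed by -0.37. Each was highest in suspension. SOX10, a factor that acts upstream of MITF, differed by -0.17, and IRF4, not detected in suspension, ran the other way at 0.34 or more. The median stayed between -0.38 and -0.18 under the alternatives. Of the members, 4 were at least 1.25-fold lower and 0 were 1.5-fold lower.

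The GPNMB promoter is shown because MITF-type factors bind the E-box CATGTG, the core of the M-box. It lies on the plus strand at chr7:23246525-23246824 of GRCh38.p14 (RefSeq), in the same window, and the capitals mark the motif, which reads CACATG where it lies on the opposite strand.
GPNMB: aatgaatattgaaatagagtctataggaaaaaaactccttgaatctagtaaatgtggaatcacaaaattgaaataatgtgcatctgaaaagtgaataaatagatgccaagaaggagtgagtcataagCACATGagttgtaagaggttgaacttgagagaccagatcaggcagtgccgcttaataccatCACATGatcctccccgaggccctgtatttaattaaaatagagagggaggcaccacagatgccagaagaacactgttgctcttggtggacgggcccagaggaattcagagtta
The motif CATGTG was found on either strand in 5 of 9 list members with a promoter sequence (EDNRB, GPNMB, GPR137B, MC1R and OCA2). It was found in 11.2% of all promoters and in 6.58% of those of compared genes. Members with the motif had a median difference of -0.29 and those without it -0.19. MITF itself differed in the same direction as GPNMB, but 10 of the 12 compared members lay below 0, and whether MITF acts on these genes was not tested.

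Chaperones of the endoplasmic reticulum and genes of the unfolded protein response were slightly lower as a list. Of 44 listed genes 39 were compared, 33 lay below 0 against 47.8% of all genes, and the median was -0.15. At least 1.25-fold lower were 4 (10.3%) against 6.35% of all genes, and 0 were as much higher against 5.89%. UGGT1, the glycoprotein folding sensor, was at 8.09, 8.68 and 8.25 and differed by -0.43, with -0.06 on its other probe. CRELD2, a stress-induced chaperone, was at 9.59, 9.87 and 9.50 and differed by -0.37. HSP90B1, the chaperone GRP94, was at 12.44, 12.93 and 12.60 and differed by -0.33. HSPA5, the chaperone BiP and a standard readout of the response, instead stood at 9.62, 9.86 and 9.97, a difference of 0.11. Cytosolic and mitochondrial heat shock chaperones had a median of 0.08 over 31 genes, which was -0.06 under median scaling.

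The HSP90B1 promoter is shown because ATF6 acts on the ER stress element that it holds. It lies on the plus strand at chr12:103930160-103930459 of GRCh38.p14 (RefSeq), in the same window, and the capitals mark matches to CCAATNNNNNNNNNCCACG on either strand, 1 of them reversed.
HSP90B1: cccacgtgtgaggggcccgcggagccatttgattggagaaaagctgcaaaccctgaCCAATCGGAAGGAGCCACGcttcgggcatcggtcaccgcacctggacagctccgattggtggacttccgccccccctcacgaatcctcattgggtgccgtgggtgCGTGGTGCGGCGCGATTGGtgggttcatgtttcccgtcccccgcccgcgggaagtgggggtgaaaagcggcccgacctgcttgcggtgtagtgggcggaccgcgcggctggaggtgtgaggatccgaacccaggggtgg
The element was found in 7 of 37 list members with a promoter sequence (CALR, CANX, CRELD2, ERO1B, HSP90B1, HSPA5 and XBP1). It was found in 0.0806% of all promoters and in 0.160% of those of compared genes. Members with it had a median difference of -0.23 and those without it -0.16.

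Lysosome and autophagy genes had a median of -0.14, with 34 of 40 compared genes of 47 listed below 0. CTSZ, a lysosomal cathepsin, was at 7.60, 8.29 and 7.36 and was 1.90-fold lower after reattachment. PSAP, which gives rise to sphingolipid activators, was at 11.79, 12.31 and 11.88 and differed by -0.44 and -0.39 on its probes. CTSL, another cathepsin, was at 11.63, 12.03 and 11.60 and differed by -0.43, -0.40 and -0.18 on 3 probes. These genes were highest in suspension. The cathepsin gene CTSD was at 7.10, 6.91 and 7.39 and differed by 0.48, against the list. The median stayed between -0.27 and -0.11 under the alternatives.

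Genes of DNA replication and mitosis stood slightly higher. Of 65 listed G1/S and replication genes 63 were compared, with a median of 0.08 and 45 above 0 against 52.1% of all genes. At least 1.25-fold higher were 4 (6.35%), close to the 5.89% of all genes, and 1 (1.59%) was as much lower. POLE, of the leading-strand polymerase, was at 8.27, 7.88 and 8.42 and differed by 0.54. GINS4, of the replicative helicase, was at 6.48, 6.45 and 7.0 and differed by 0.55. E2F1, a transcription factor of this program, was at 6.60, 6.71 and 6.18 and differed by -0.53. POLE was lowest in suspension, GINS4 was highest after reattachment and E2F1 was lowest there.

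Of 62 listed G2/M genes 61 were compared, with a median of 0.07 and 44 above 0. At least 1.25-fold higher were 3 (4.92%), no more than the 5.89% of all genes, and 1 (1.64%) was as much lower. SGO2, which protects centromere cohesion, was at 8.61, 8.43 and 8.84 and differed by 0.42, and the checkpoint kinase gene BUB1 was at 9.48, 9.42 and 9.78 and differed by 0.36. FOXM1, a factor that drives mitotic genes, differed by 0.33 and 0.32 on its probes. Under median scaling both medians turned negative (-0.06 and -0.05) but stayed above that of all genes by 0.06 and 0.07. Mitochondrial ribosomal proteins had a median of 0.06 with 56 of 76 above 0, and cytosolic ribosomal proteins one of 0.02 with 43 of 71 above 0. No test of these medians was made.

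Inflammatory and immediate early genes gave a mixed picture. Among 27 compared NF-kB targets, chemokines and cytokines of 36 listed the median was -0.11, with 4 at least 1.25-fold higher and 6 lower. TRAF1, a signalling adaptor, was at 6.10, 6.93 and 6.02 and differed by -0.91. TNFAIP3, the feedback inhibitor A20, was at 6.04, 6.39 and 5.82 and differed by -0.57. The chemokine gene CXCL8 was at 12.12, 13.64 and 13.15 and differed by -0.49 and -0.23 on its probes, so that its reattached level stayed nearer to suspension than to adherence. CXCL2 was detected in suspension alone and was at least 1.71-fold lower after reattachment. CCL2, described above, ran against these genes.

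PTGS2, the inducible prostaglandin synthase, stood at 5.16 in adherent, near the detection limit, 7.15 in suspended and 6.0 in reattached cells, 2.21-fold lower after reattachment on its brightest probe and -0.43 on the other. PLA2G4A, the phospholipase that frees its substrate, was at 5.77, 6.43 and 5.92 and differed by -0.51. Of 16 listed genes of prostaglandin synthesis and breakdown 10 were compared, with a median of -0.08 and 3 above 0. At least 1.25-fold lower were 2 of them, and 0 were as much higher. Early response factors had a median of -0.03 over 21 genes, 10 of them above 0, with 2 at least 1.25-fold higher, BATF3 (0.43) and IER5 (0.35), and 4 as much lower. EGR1 was at 7.31, 8.26 and 7.78 (-0.48), EGR3 at 6.87, 8.18 and 7.61 (-0.57), and NR4A2 at 7.92, 8.92 and 8.47 (-0.45, and -0.55 on its other probe). EGR1, EGR3 and NR4A2 were highest in suspension and lowest in adherent cells, while JUN (0.01) and MYC (-0.03) stood near 0.

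Among surface and signalling proteins, CD55, which protects cells from complement, was at 9.14, 9.96 and 8.68 and was 2.42-fold lower after reattachment, below its adherent level. Its neighbour in function CD59 was at 7.79, 8.42 and 8.14 and differed by -0.28, with 0.11 on its other probe. The neuronal adhesion gene NRCAM, a relative of L1CAM, was at 6.79, 8.11 and 7.24 and differed by -0.87 and -0.36. MCAM, the melanoma cell adhesion molecule, differed by -0.49. NRG1, a ligand of ERBB receptors, was at 6.13, 5.25 and 6.17, its suspended level near the detection limit, and differed by 0.92 and 0.44. TGFA, a ligand of the EGF receptor, was at 11.90, 12.20 and 11.66 and differed by -0.54 and -0.35. L1CAM and NRG1 were thus lowest in suspension, NRCAM was highest there, and TGFA was lowest after reattachment.

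Other lower genes came from separate functions. VGF, a secreted neuropeptide precursor and the brightest of the 12 genes at 2-fold lower, was at 11.16, 12.34 and 11.24 and was 2.14-fold lower. SPRR2D, a precursor of the cornified envelope, was at 5.77, 7.93 and 6.69 and was 2.36-fold lower. HINT3, a hydrolase gene, was at 6.71, 8.19 and 6.85 on its brightest probe, 2.52-fold lower, but its other probe differed by -0.06, and the average over probes was -0.70. VGF and HINT3 came within 0.2 of their adherent levels, while SPRR2D stayed higher than its own. Of the genes detected in suspension and not after reattachment, ELMOD3 was at least 1.77-fold lower, the neurotensin precursor NTS at least 1.76-fold and the phosphodiesterase gene PDE3A at least 1.75-fold.

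Short structural RNAs, which work in splicing, RNA processing and transcription, made up 5 of the 12 genes at 2-fold lower. Of 117 genes with such RNA biotypes in RefSeq, 0 were 2-fold higher and 5 were 2-fold lower, and 1 was 1.5-fold higher and 16 lower, against 87 higher and 101 lower at 1.5-fold among the 10599 other genes. RNU4-2, a gene of the U4 spliceosomal RNA, was at 6.49 in adherent, 7.92 in suspended and 6.36 in reattached cells and was 2.93-fold lower. RNU4-1, its near-identical copy, was at 7.48, 8.70 and 7.26 and was 2.70-fold lower. RN7SK, whose RNA holds back the elongation factor P-TEFb, was at 8.01, 8.63 and 7.37 and was 2.40-fold lower. In each the reattached level was the lowest of the 3.

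RMRP, the RNA of a ribonuclease that processes ribosomal RNA, was at 5.93, 6.82 and 5.68 and was 2.20-fold lower, and RNVU1-18, a variant U1 gene, was at 7.53, 8.52 and 7.42 and was 2.14-fold lower. The U3 genes SNORD3A, SNORD3C and SNORD3D differed by -0.70, -0.91 and -0.93. Others lay near 0. RN7SL1, of the signal recognition particle, was at 13.71, 13.87 and 13.98 and differed by 0.11, RNU6-1 by -0.09 and RPPH1 by 0.15. Over the 14 compared spliceosomal and other structural RNAs of 23 listed, the median was -0.76, and over 97 compared small nucleolar and Cajal body RNAs of 300 it was -0.10. Without a detection filter the former median was -0.09, since the added RNAs were near background. Copies of U1, U3 and U4 share sequence and may share signal, so they are not separate observations. How the RNA extraction and labelling recovered short RNAs in each sample was not tested.

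**Figure D5:**
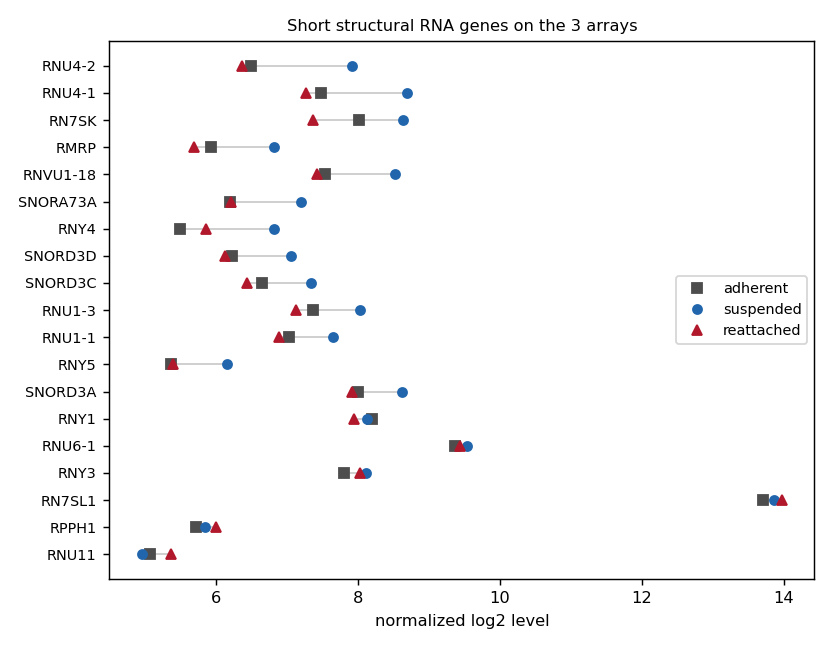
Normalized log2 levels (horizontal axis) of 19 short structural RNA genes with a square for adherent, a circle for suspended and a triangle for reattached cells, 1 array each. RNU4-2, RNU4-1, RN7SK, RMRP and RNVU1-18 show suspended levels well to the right of both other arrays, whereas RN7SL1 (13.71, 13.87 and 13.98) and RPPH1 lie close together.

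Reference genes moved with the scaling and so gave no separate gauge of it. The median of 13 genes was 0.01, from YWHAZ at 0.29 to GUSB at -0.32, with GAPDH at -0.17 and PPIA at 0.01. Under median scaling their median was -0.13, where all genes stood at -0.12. Of 19 lists whose median lay at least 0.1 from that of all genes, 6 higher and 13 lower, 18 stayed on the same side of all genes under every alternative tried, and the exception was complement. Some kept the side but not the size. The smallest distance from all genes was -0.0015 for antigen presentation and 0.023 for intermediate filaments. It was 0.025 for markers of keratinocytes and epithelia and -0.031 for TGF-beta and BMP ligands and receptors. For the keratinocyte and epithelial list, 9 alternatives gave a median. With detection on both arrays KRT14 and KRT8 drop out, leaving KRT10 (-0.07), so the side of this list was not assessed there.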

How the data were processed

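The intensity values of the deposited scanner table (1 signal per probe and array, linear, not normalized) and its detection p-value columns, in steps of 1 in 770, are as the authors deposited them, per the file headers. RNA was extracted and labelled as biotinylated cRNA, per the labels' protocols. The authors' second table, intensity values already sharing 1 distribution, served as an alternative, on a log2 scale taken here from the deposited values. Background correction, quantile normalization over 3 arrays and log2 were done with neqc (limma 3.58.1, R 4.3.3, offset 16), which infers negative controls from the detection p-values. Further steps used Python 3.11.15, pandas 2.3.3, numpy 2.4.6, scipy 1.17.1 and matplotlib 3.10.9. Scanner software and any earlier step are not stated in the labels or headers.

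Gene names came from GEO's platform annotation: of 47323 probes, 30113 had 1 symbol, 8 had several and were left unnamed, and 17202 had none. For 30074 of them the Entrez identifier matched the RefSeq GRCh38.p14 table, which left every symbol as it was. A gene was read from its member probe with the highest mean log2 level over the 3 arrays. A value not detected was raised to the lowest detected level on its array (5.13 adherent, 5.18 suspended, 5.29 reattached) if it lay under it, and the fold is then written as at least so much.

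Named genes were the 20 highest and 20 lowest of those measured on both arrays, the 8 brightest detected on 1 array in each direction, up to 15 in each direction with all probes at 1.5-fold, and members of 66 lists. The rankings left out symbols starting with LOC or HS and a dot, or holding KIAA, FLJ, MGC or orf. Pseudogenes were left out of lists, and the result of 1 list is not reported here. Members, lists and rules were chosen with earlier results of these data known, and the 1.25-fold threshold and the promoter motifs were added after values were seen. No test was run, since each state had 1 array. Alternatives were median scaling, cyclic loess, an offset of 50, background left in, the authors' values, the 2 arrays normalized alone, detection on both arrays, detection p under 0.05, no detection filter and the mean over probes. The steps were tested on simulated data with planted differences above 2-fold in genes well above background, which does not bear on small or dim differences. The number of arrays and the signal over background limit the precision.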

Additional observations from a re-analysis of the deposited data

How the results depend on the processing

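At 2-fold, the 22 higher genes became 12 under median scaling, 11 with an offset of 50, 11 with background left in and 9 with the authors' values, and the 12 lower genes became 30 under median scaling and 7 with the authors' values. At 1.5-fold, the 88 higher genes became 56 under median scaling, 39 under each of offset 50, background left in and the authors' values, and 170 without a detection filter, and the 117 lower genes became 254, 57, 57, 53 and 209 in the same order. The share of same-sign probes (80.4%) became 91.7% with offset 50 or background left in, 91.3% with the authors' values and 61.7% without a filter. Median scaling moved the median of all genes to -0.12, a larger offset or background left in shrinks dim differences by construction, dropping the filter adds genes near background, and for the authors' values the cause was not tested. All 12 genes that were higher at 2-fold under median scaling were among the main 22. Of 17 lists with a main median at least 0.1 from 0, some changed sign. They were focal adhesion (-0.026) and sterol genes (-0.034) under median scaling, and complement (0.018) and antigen presentation (0.0030) without a filter. For the latter pair the cause was not tested. Medians nearer 0 also changed sign. Examples were Hippo kinases (-0.049) and G1/S genes (-0.064) under median scaling and p53 targets (0.013) without a filter. Of 76 list members at 1.5-fold or more, 75 kept their sign under every alternative, and the exception was COL12A1, whose probes disagree. No paired analysis was possible because each state had 1 array. Depth here means signal over background, and it limits the dim genes, whose SD is about 0.28. Without replicate arrays no difference can be set against culture-to-culture variation.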

Other observations

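Sterol synthesis and uptake genes, which feed membrane growth, had a median of 0.11 over 24 of 30 listed genes, 16 of them above 0. The motif TCACNCCAC of the sterol regulatory element, searched on both strands, was found in 0 of 22 members with a promoter sequence. It was found in 1.15% of all promoters and in 1.04% of those of compared genes. LSS, which closes the sterol ring, was at 8.41 in adherent, 7.92 in suspended and 8.32 in reattached cells and differed by 0.40, and MVK, the mevalonate kinase gene, was at 5.84, 5.58 and 5.96 and differed by 0.38. Fatty acid synthesis genes had a median of 0.01 over 16 genes.

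Intermediate filament genes had a median of 0.12 over 14 of 56 listed genes, with KRT80, KRT9 (6.80, 5.58 and 6.57 in the same order of states) and KRT14 at 1.5-fold or more and 0 lower. VIM, the main filament gene of mesenchymal cells, differed by -0.10. A4GALT, which makes the glycolipid Gb3, was not detected in adherent cells and stood at 6.68 in suspended and 5.78 in reattached cells, and ST3GAL5, which makes the ganglioside GM3, differed by -0.36 and -0.30 on its probes. PLK2, a stress-induced kinase and p53 target, was at 7.39, 6.63 and 7.57 and was 1.92-fold higher, while the list of p53 targets had a median of -0.06. The U22 small nucleolar RNA gene SNORD22 was at 5.30, 5.53 and 6.33 and differed by 0.80, against the direction of most RNAs of its kind.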
